A study of Mus musculus with 284 samples.

Results

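This account covers 9 genes of tight and gap junctions: Cldn1, Cldn4, Ocln, Tjp1, F11r, Gja1, Gjb2, Gjb5 and Gjb6. They were taken by name, all 9 have a row among the 54247 gene IDs measured, and all 9 passed the filter on low counts that left 16567 genes for testing. The cells were 284 tumour propagating cells from skin tumours of 4 mice, profiled 1 cell per well by Smart-seq2, which reads whole transcripts and counts reads rather than molecules. WT1 (69 cells) and WT2 (88 cells) are labelled wild type, and KO1 (73 cells) and KO3 (54 cells) are labelled Sirt6-/-. SIRT6 is a histone deacetylase. All 4 C57BL/6 mice had 1 dose of the carcinogen DMBA at 8 weeks of age and then repeated TPA, a tumour promoter, over more than 20 weeks. In all of them the sorted cells carried CD34, CD49f and a YFP reporter (ROSA26-LSL-eYFP; Keratin14-Cre), so the reporter marks cells in which the keratin 14 promoter had driven Cre. The labels do not say whether each mouse gave 1 tumour or several, and with 2 mice per genotype the mouse is the replicate throughout.

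Summed counts were 66335552 to 92622682 per mouse, and cells held 523999 to 1684464 counts (median 1130412) and 3235 to 8470 detected genes. The median number of genes detected per cell was lowest in WT2, at 5784, against 6367 to 7009 in the other mice. Sirt6 itself stood at 16.4 CPM (counts per 1000000) for WT1 and 26.4 for WT2, and 26.3 for KO1 and 14.5 for KO3, so its transcript level did not separate the genotype labels. The labels do not say which exons were deleted, and a level over the whole gene need not show a deletion. Wherever 4 values are listed without names, here and further on, they stand in that order of mice. The 7 keratinocyte markers checked were present at 26337 to 41588 summed CPM. The 7 fibroblast markers summed to 0.35 to 1.13 CPM in wild type and 0.62 to 1.72 in Sirt6-/- mice, with 4 of them at 0 in every mouse, and the 7 immune markers to 6.1 to 32.4 and 3.69 to 12.7, with Cd3e and Cd207 at 0. Endothelial markers summed to at most 3.08 CPM and melanocyte markers to at most 4.57 in any mouse. No plate held cells of both genotypes: WT1 and 7 cells of WT2 were on plate 3, the other 81 cells of WT2 on plate 4, 65 cells of KO1 on plate 1, and 8 cells of KO1 with all of KO3 on plate 2. Genotype and plate therefore cannot be told apart, and every difference between the genotypes given here is also a difference between plates.

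Tight junctions seal the space between epithelial cells. Claudins (Cldn1, Cldn4) form their strands, occludin (Ocln) and the junctional adhesion molecule JAM-A (F11r) lie in the membrane beside them, and the scaffold ZO-1 (Tjp1) ties them to actin. In epidermis the working tight junctions lie in the granular layer, and mice without Cldn1 lose the water barrier of the skin. Gap junctions are channels of connexins through which neighbouring cells exchange ions and small molecules. Connexin 43 (Gja1) is the main connexin of basal keratinocytes, whereas connexin 26 (Gjb2) and connexin 30 (Gjb6) are low in resting skin and rise in hyperproliferative epidermis. Gjb5 encodes connexin 31.1, a keratinocyte connexin.

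Gene coordinates are of GRCm38 (GENCODE M21). The genes' start sites are shown first because a pair of members, Gjb2 and Gjb6, lie side by side and varied together across cells. Gjb2 (ENSMUSG00000046352.7, chr14:57098600-57104702) and Gjb6 (ENSMUSG00000040055.9, chr14:57123303-57133611) are neighbours on the minus strand, 18600 bases apart. The sequences below are the 250 bases before the RefSeq start (GRCm38.p6, 5′ to 3′ in the gene's direction) of the neighbours Gjb2 and Gjb6, of Cldn4 as a claudin that varied between mice, and of Gja1 as the connexin found in nearly all cells. Capitals mark matches on either strand to the AP-1 motif TGANTCA, the grainyhead motif AACCNGTT, the Snail-type E-box CAGGTG, the GC box GGGCGG and the TATA box TATAAA.
Gjb2, chr14:57104703-57104952, minus strand: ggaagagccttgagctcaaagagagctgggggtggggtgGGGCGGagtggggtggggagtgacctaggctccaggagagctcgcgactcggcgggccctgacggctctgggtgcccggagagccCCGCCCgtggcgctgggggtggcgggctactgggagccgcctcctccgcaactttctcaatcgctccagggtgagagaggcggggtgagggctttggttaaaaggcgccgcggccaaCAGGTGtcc
Gjb6, chr14:57133612-57133861, minus strand: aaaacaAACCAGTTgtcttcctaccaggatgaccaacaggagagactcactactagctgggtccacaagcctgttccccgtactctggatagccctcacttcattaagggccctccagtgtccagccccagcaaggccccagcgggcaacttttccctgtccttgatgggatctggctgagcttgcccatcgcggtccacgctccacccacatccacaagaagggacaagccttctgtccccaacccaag
Cldn4, chr5:134946935-134947184, minus strand: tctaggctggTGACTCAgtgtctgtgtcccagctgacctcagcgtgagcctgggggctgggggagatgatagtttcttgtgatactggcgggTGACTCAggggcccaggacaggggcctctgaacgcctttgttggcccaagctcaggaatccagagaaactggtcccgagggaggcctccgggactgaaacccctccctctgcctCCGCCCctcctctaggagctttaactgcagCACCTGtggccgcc
Gja1, chr10:56377050-56377299, plus strand: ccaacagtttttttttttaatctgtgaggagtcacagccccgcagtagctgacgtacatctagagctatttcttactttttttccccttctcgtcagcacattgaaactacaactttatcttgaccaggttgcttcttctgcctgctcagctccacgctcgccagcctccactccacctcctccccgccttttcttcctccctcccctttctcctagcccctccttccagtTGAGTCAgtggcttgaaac
The window of Gjb2 held 2 GC boxes and an E-box that ends 4 bases before the start, and 69.2% of its bases were G or C, against a median of 52.4% over 32851 windows. Gjb6 held a grainyhead match from 244 to 237 bases before the start, a motif found in 1.79% of windows. Cldn4 held 2 AP-1 matches, a GC box and an E-box, and Gja1 had an AP-1 match 19 to 13 bases before its start. AP-1 matches lay in 6.75% of all windows, E-boxes in 17.2%, GC boxes in 32.7% and TATA boxes in 12.4%. The neighbours Gjb2 and Gjb6 shared none of the 5 motifs in these windows. F11r, whose start is on chromosome 1, was the remaining member with an AP-1 match, and Gjb5 the only member with a TATA box match, on the reverse strand 243 to 238 bases before its start. These are matches of letters and say nothing on binding.

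None of the 9 genes differed between the genotypes past the threshold. Each mouse's cells were summed and tested with edgeR's quasi-likelihood test, adjusted by Benjamini-Hochberg over 16567 genes at 0.05. It called 0 of 9 members and 0.0% of all genes, and 0 of 9 members against 5.12% of all genes had an unadjusted p under 0.05. DESeq2, run as an alternative, called 0.899% of all genes and none of the members. The log2 difference (Sirt6-/- over wild type) was above 0 for 5 members and below 0 for 4, with a median of 0.11 against -0.01 over all genes tested. In 3 members the groups did not overlap, lower in both Sirt6-/- mice for Cldn1 and F11r and higher for Gjb5. Over all genes 35.7% did not overlap, 18.7% lower and 17.0% higher. The fit had 2 residual degrees of freedom, a common biological coefficient of variation of 0.72, and p-values that measure only the spread between these 4 mice. The 16 basal genes had a mean log2(CPM + 1) of 9.19 and 9.27 in the wild-type mice and of 8.58 (KO1) and 8.45 (KO3) in the others. For the 14 differentiation genes it was 6.53 (WT1), 6.64 (WT2), 6.28 (KO1) and 7.14 (KO3). The part of these levels in the members' differences was not tested.

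**Figure D1:**
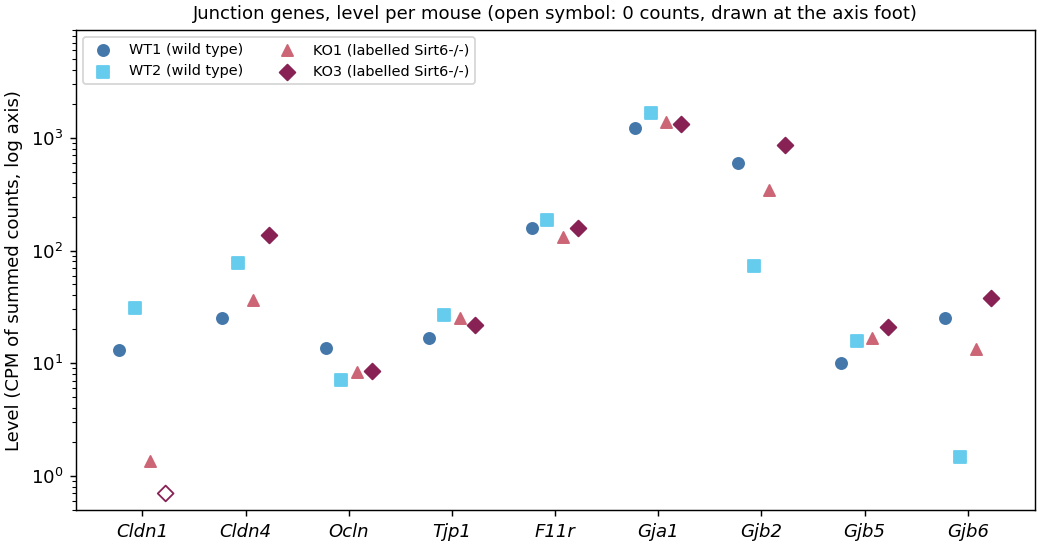
Level of the 9 genes in each mouse, as TMM-scaled CPM of the summed counts on a log axis, with 1 point per mouse; the open symbol marks 0 counts. Gja1 lies between 1224 and 1671 CPM in all 4 mice, Gjb2 and Gjb6 are lowest in WT2, and Cldn1 is at 1.36 and 0 CPM in the Sirt6-/- mice.

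Cldn1 (ENSMUSG00000022512.3, chr16:26356642-26371841), the claudin whose loss opens the epidermal barrier, was read mainly in wild-type cells. Its level was 13.2 CPM for WT1 and 30.6 for WT2, and 1.36 for KO1 and 0 for KO3. A count was present in 7 of 69 cells of WT1 (10.1%, exact 95% interval 4.2 to 19.8), 25 of 88 of WT2 (28.4%, 19.3 to 39.0), 2 of 73 of KO1 (2.7%, 0.3 to 9.5) and 0 of 54 of KO3. A limit of 3 cells of the 54 allows KO3 a share of up to 5.56%, and its exact interval reaches 6.6%. These intervals, and all others here, cover counting error only. Both Sirt6-/- mice were below both wild-type mice, by a log2 difference of -4.99 (SE 2.01). In edgeR's test the unadjusted p was 0.0611 and the adjusted p 0.965, so the difference did not pass the threshold. Each SE of a log2 difference, here and further on, was derived from the test: the size of the difference divided by the square root of edgeR's F statistic. The log2 difference was -4.01 without KO3, -5.48 without WT1 and -4.27 without WT2. Without KO1 the group was KO3 alone, at 0 counts, and the fitted value of -13.73 is no bound. Thinning every cell to 500000 counts left the shares at 10.1%, 27.3%, 2.7% and 0%. Cldn1 was seen on both plates of WT2 (3 of 7 cells on plate 3 and 22 of 81 on plate 4), while on plate 2 it was seen in 0 of 8 cells of KO1 and 0 of 54 of KO3. The level of Cldn1 rests on few cells. The cell with the most reads, of WT1 (770 CPM), held 17.3% of the Cldn1 counts of all 4 mice. The level of WT1 rests largely on that cell, and so does the log2 difference without WT2.

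Cldn4 (ENSMUSG00000047501.3, chr5:134945119-134946934), a claudin of suprabasal and simple epithelia, varied as much within a genotype as between them. Its level was 25.4 CPM for WT1 and 77.3 for WT2, and 36.7 for KO1 and 136 for KO3. The share of cells with a count was 18.8% for WT1 and 25.0% for WT2, and 28.8% for KO1 and 53.7% for KO3 (interval 39.6 to 67.4). KO3's share lay above the upper bounds of WT1, WT2 and also KO1, at 30.1%, 35.4% and 40.6%. These bounds do not cover the spread between mice. The log2 difference was 0.75 (SE 0.835, adjusted p = 0.985 with edgeR), and it turned to -0.49 without KO3. In WT2 the 7 cells on plate 3 stood at 334 CPM before scaling and the 81 on plate 4 at 50.4, while WT1 on plate 3 stood at 25.9. A single cell of KO3 reached 3444 CPM and held 13.2% of all Cldn4 counts.

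Over all 13 claudin genes with a row, 31 of 69 cells of WT1 (44.9%), 36 of 88 of WT2 (40.9%) and 29 of 73 of KO1 (39.7%) had no count of any claudin. In KO3 this held for 4 of 54 cells (7.4%, interval 2.1 to 17.9). After thinning to 500000 counts the shares were 44.9%, 42.0%, 42.5% and 7.4%. KO1, of the same genotype label, lay with the wild-type mice. Cldn8, the most abundant claudin outside the 9 genes, was at 59.7, 14.4, 44.8 and 73.6 CPM (WT1, WT2, KO1, KO3).

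The remaining tight junction members differed by less than 2 times between any pair of mice. Ocln (ENSMUSG00000021638.12, chr13:100496507-100552718) was at 13.7 CPM for WT1 and 7.17 for WT2, and 8.45 for KO1 and 8.49 for KO3, with a count in 15.9%, 11.4%, 11% and 20.4% of cells. Its log2 difference of -0.30 (SE 0.491, adjusted p = 0.999 with edgeR) became 0.25 without WT1. Tjp1 (ENSMUSG00000030516.14, chr7:65296165-65527781) was at 16.6, 26.9, 25.1 and 22.0 CPM and was found in 42.0%, 45.5%, 46.6% and 55.6% of cells. Its log2 difference was 0.11 (SE 0.353, adjusted p = 0.999 with edgeR), and -0.22 on the main plate of each mouse, since the 8 cells of KO1 on plate 2 stood at 98.2 CPM and the 65 on plate 1 at 16.5. F11r (ENSMUSG00000038235.4, chr1:171437535-171464603) was the most widely found tight junction member, at 159, 185, 133 and 158 CPM and in 89.9%, 88.6%, 86.3% and 92.6% of cells. Its groups missed overlapping by very little, 158.34 CPM in KO3 against 158.62 in WT1, and the log2 difference was -0.24 (SE 0.212, adjusted p = 0.977 with edgeR).

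Of the other tight junction genes, a list of 39 names, 36 had a row and 26 passed the filter. None was called, 12 had a log2 difference above 0 and 14 below, and the median was -0.06. The groups did not overlap in 8 of the 26 (2 higher and 6 lower in Sirt6-/- mice), near the 35.7% over all genes. Among the 6 most abundant, Lsr, the angulin of tricellular contacts, was higher in both Sirt6-/- mice: 57.4 CPM for WT1 and 44.3 for WT2, and 69.5 for KO1 and 90.9 for KO3 (adjusted p = 0.965 with edgeR). Cxadr, a junctional adhesion receptor, was at 88.9, 102, 86.9 and 51.5 CPM. Amotl1 (43.7 to 88.9 CPM) and Ybx3 (34.6 to 50.2 CPM) overlapped between the groups.

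Gja1 (ENSMUSG00000050953.10, chr10:56377330-56402513), connexin 43, was found in nearly every cell. It stood at 1224 CPM for WT1 and 1671 for WT2, and 1393 for KO1 and 1328 for KO3, with a count in 69 of 69, 88 of 88, 72 of 73 and 53 of 54 cells. Cells ranged from 0 to 7732 CPM, and the median cell held 974, 1320, 1240 and 1150 CPM. The log2 difference was -0.09 (SE 0.226, adjusted p = 0.999 with edgeR) and became 0.15 without WT2. Gja1 made up 63.6% of all connexin counts for WT1 and 93.2% for WT2, and 75.1% for KO1 and 56.6% for KO3. These shares are of reads and are not corrected for transcript length.

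Gjb2 (connexin 26) supplied most of the remaining connexin counts, again not corrected for length, and differed widely between mice of 1 genotype. Its level was 592 CPM for WT1 and 72.9 for WT2, and 345 for KO1 and 858 for KO3, and it made up 30.8%, 4.1%, 18.6% and 36.5% of connexin counts. WT2 was lowest and KO3 highest, and the wild-type mice lay further apart than the genotype means (333 ± 367 CPM in wild type, 602 ± 362 in Sirt6-/-, SD, n = 2 each). A count was present in 73.9%, 38.6%, 60.3% and 94.4% of cells, and the median cell held 200, 0, 42.5 and 437 CPM. The log2 difference was 0.86 (SE 1.05, adjusted p = 0.994 with edgeR). It was 3.06 without WT1 and 0.02 without WT2, and 0.05 without KO3. Only mice of 1 genotype shared a plate, and each time with few cells of 1 of them. On plate 3 WT1 stood at 604 CPM before scaling and the 7 cells of WT2 at 20.2. On plate 2 KO3 stood at 858 and the 8 cells of KO1 at 365. The part of plate in the differences between mice was not tested. KO1 gave 353 CPM on plate 1, close to its value on plate 2.

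Gjb6 (connexin 30), the neighbour of Gjb2, followed the same order of mice at a far lower level. It stood at 25.1 CPM for WT1 and 1.46 for WT2, and 13.4 for KO1 and 37.6 for KO3, with a count in 29.0%, 4.5%, 15.1% and 31.5% of cells. Its log2 difference was 0.94 (SE 1.34, adjusted p = 0.999 with edgeR), 4.14 without WT1 and 0.01 without KO3. Gjb5 (ENSMUSG00000042357.2, chr4:127354809-127358181), connexin 31.1, was higher in both Sirt6-/- mice, at 10.1 CPM for WT1 and 15.9 for WT2, and 16.9 for KO1 and 20.9 for KO3, and was found in 17.4%, 20.5%, 20.5% and 38.9% of cells. Its log2 difference was 0.54 (SE 0.384, adjusted p = 0.969 with edgeR).

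**Figure D2:**
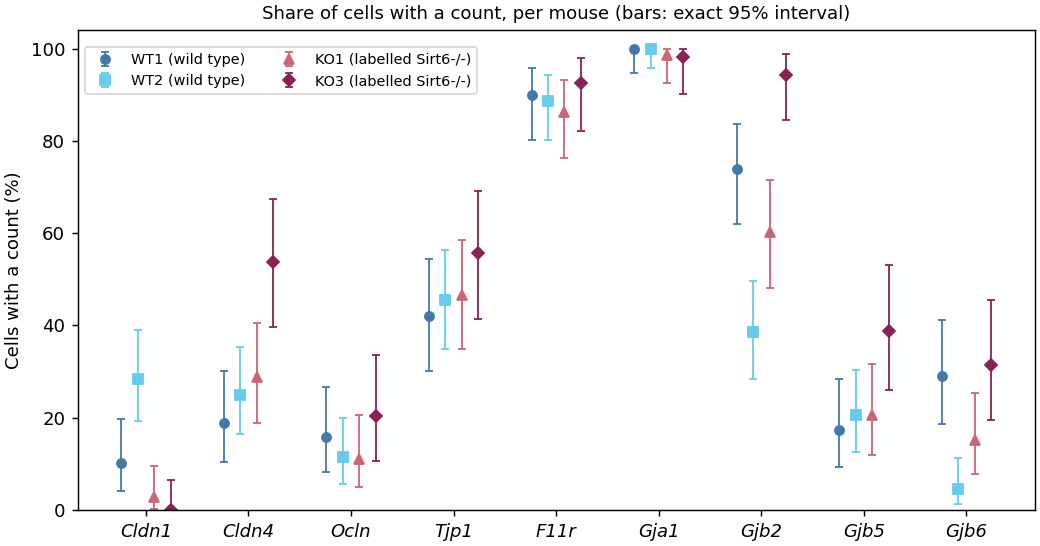
Share of cells with at least 1 count of each gene, in percent of the cells of each mouse, with exact 95% intervals for counting error. Gjb2 spans 38.6% (WT2) to 94.4% (KO3), Gjb6 4.5% to 31.5% and Cldn1 0% to 28.4%, while Gja1 is at 98.1% or more in every mouse.

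WT2 was the lowest mouse for Cldn8 as well. Across all genes tested 27.7% were lowest in WT2, against 3 of the 9 members (Ocln, Gjb2 and Gjb6). WT2 had the fewest detected genes per cell and the lowest S phase list level (mean log2(CPM + 1) of 6.16, against 6.60 to 6.82 in the other mice). Of the 20 differentiation genes past the filter 10 were lowest in WT2, but they did not all share this order: Klk10 was lowest in WT2 (179 CPM, against 496 to 1558), whereas Krt10 and Krt1 were highest there, at 555 and 1080 CPM. The part of depth, plate and cell state in the low levels of Gjb2 and Gjb6 in WT2 was not tested. Gja1, in contrast, was highest in WT2, and Gjb5 was higher there than in WT1. Of the 19 other connexins and pannexins, 7 passed the filter, none was called, 4 had a log2 difference above 0 and 3 below, and the median log2 difference was 0.39. The pannexin Panx1 was lower in both Sirt6-/- mice, at 40.8, 62.2, 31.7 and 26.4 CPM (adjusted p = 0.965 with edgeR).

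Levels can be set beside each other only per length of transcript, and the order of the leading connexins depends on the length used. Per kilobase of merged exons, Gjb2 had 246 CPM for WT1 and 30.3 for WT2, and 144 for KO1 and 357 for KO3, and Gja1 119, 163, 136 and 129, so Gjb2 was higher in 3 of 4 mice. The merged exons of Gja1 span 10257 bases and its principal transcript 3182. With the principal transcript, an alternative chosen after seeing the data, Gja1 had 385, 525, 438 and 417 CPM per kilobase and exceeded Gjb2 in all 4 mice. F11r had 50.0 to 69.4 CPM per kilobase of merged exons and Cldn4 14.0 to 75.1. Their order varied with the mouse: in WT2 both exceeded Gjb2, and in KO3 Cldn4 exceeded F11r. The other 5 members lay at or below 14.1 CPM per kilobase in every mouse, with Tjp1 at 2.13 to 3.45 and Ocln at 1.70 to 3.24.

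The relation to differentiation and proliferation was taken across the cells of each mouse. Each member's log2(CPM + 1), with linear trends on total counts and detected genes removed, was correlated with the mean z-score of fixed lists: 14 differentiation genes, 16 basal genes, 23 genes of G2/M and 23 of S phase. The correlations are descriptions with no p-value, since cells of a mouse share an animal and a plate. The differentiation and basal scores ran against each other (mean r -0.765 over the mice), and the differentiation and S phase scores had a mean r of -0.366. Only Tjp1, F11r, Gja1 and Gjb2 were read in 20% or more of the cells of each mouse. For the other members the values are sparse and weak correlations carry little.

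Cells with a higher differentiation score had more Gjb2 in every mouse. Its correlation was 0.562 for WT1 and 0.503 for WT2, and 0.416 for KO1 and 0.636 for KO3, with a mean of 0.529 that lay at the 99.6th percentile of 8459 genes. With the basal score it was -0.487, -0.422, -0.244 and -0.529 (mean -0.420, percentile 0.5). It was positive in all 4 mice with 13 of the 14 differentiation genes, among them the desmoglein Dsg1b (mean r 0.493), the protease inhibitor Cst6 (0.494), Krt1 and Krt10 (0.350 each) and Klk10 (0.366). The exception was the transcription factor Pou3f1 (-0.025). It was negative in all 4 mice with 11 of 16 basal genes, with Dst, the hemidesmosomal plakin, at -0.419 and Krt5 at -0.406, while Krt14 (-0.042) was not among them. So within WT2, where Gjb2 was low and Krt1 and Krt10 were high, the cells with more Krt10 still had more Gjb2 (r 0.460).

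**Figure D3:**
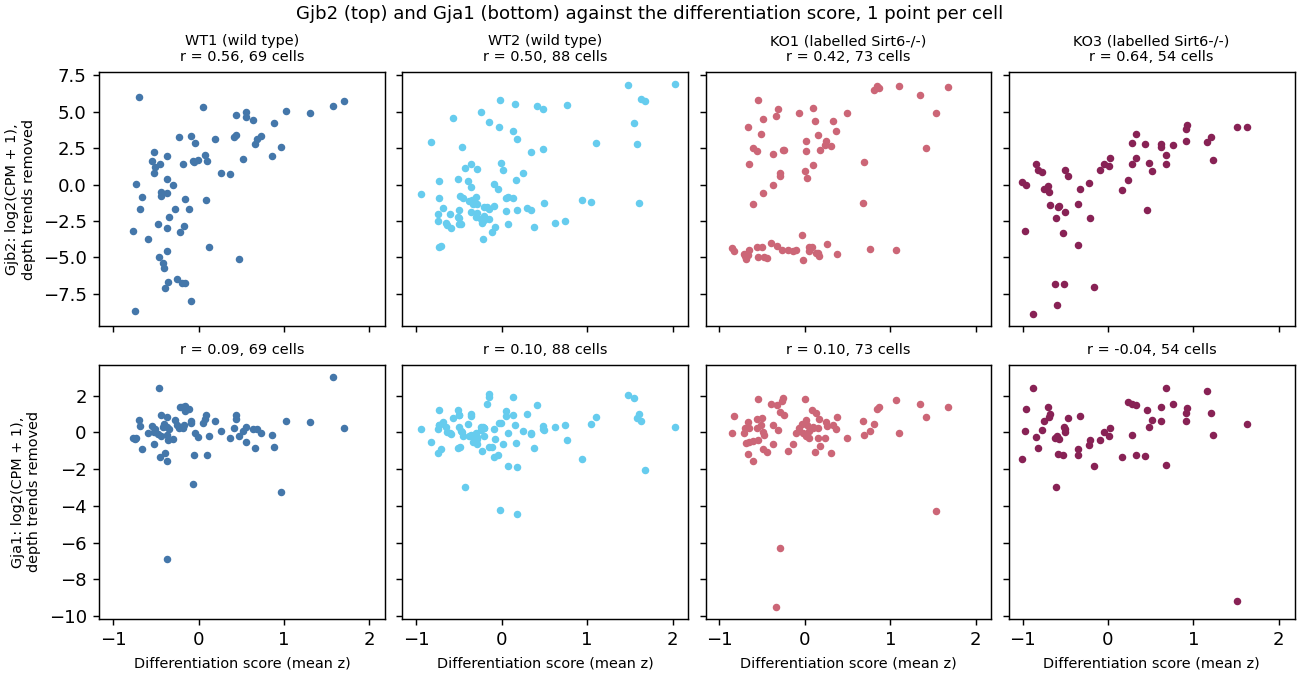
Gjb2 (top row) and Gja1 (bottom row) against the differentiation score, 1 panel per mouse and 1 point per cell; the vertical axes are log2(CPM + 1) with the trends on depth and detected genes removed, the horizontal axis is the mean z-score of 14 genes. Gjb2 is higher at higher scores in each mouse (Pearson r 0.416 to 0.636). Gja1 shows little linear slope (Pearson r -0.035 to 0.104), with a higher mean by rank correlation.

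The values of Gja1 were lower. Its Pearson correlation with the differentiation score was 0.091 for WT1 and 0.102 for WT2, and 0.104 for KO1 and -0.035 for KO3 (mean 0.065). As a rank correlation the mean was higher, at 0.197. In KO3 the cell without a Gja1 count had a high differentiation score (1.51), and the weight of single cells in the Pearson values was not tested. The Pearson correlation of Gja1 with Gjb2 across cells was near 0 (0.008, 0.019, -0.079 and 0.016). F11r (mean 0.045) and Gjb5 (0.001) were near 0, and Tjp1 had a mean of 0.095. Among the sparse members Ocln was positive in all 4 mice (0.158, 0.312, 0.218 and 0.393), as were Gjb6 (0.172, 0.113, 0.269 and 0.369) and Cldn4 (0.323, 0.090, 0.003 and 0.416). Cldn1 had 0.077, 0.288 and 0.242 in the 3 mice with counts. Of the 8 members with counts in every mouse, 4 were above 0 in all 4 mice (Cldn4, Ocln, Gjb2 and Gjb6), and 16.8% of the background genes were. That background, also used for the scores that follow, holds genes found in at least 20% of each mouse's cells, a share that Cldn4, Ocln, Gjb5 and Gjb6 did not reach, so their counts are not set against like genes. Below 0 in all 4 mice with the basal score were 4 of these 8 (Ocln, Tjp1, Gjb2 and Gjb6) and 15.8% of the background genes.

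**Figure D4:**
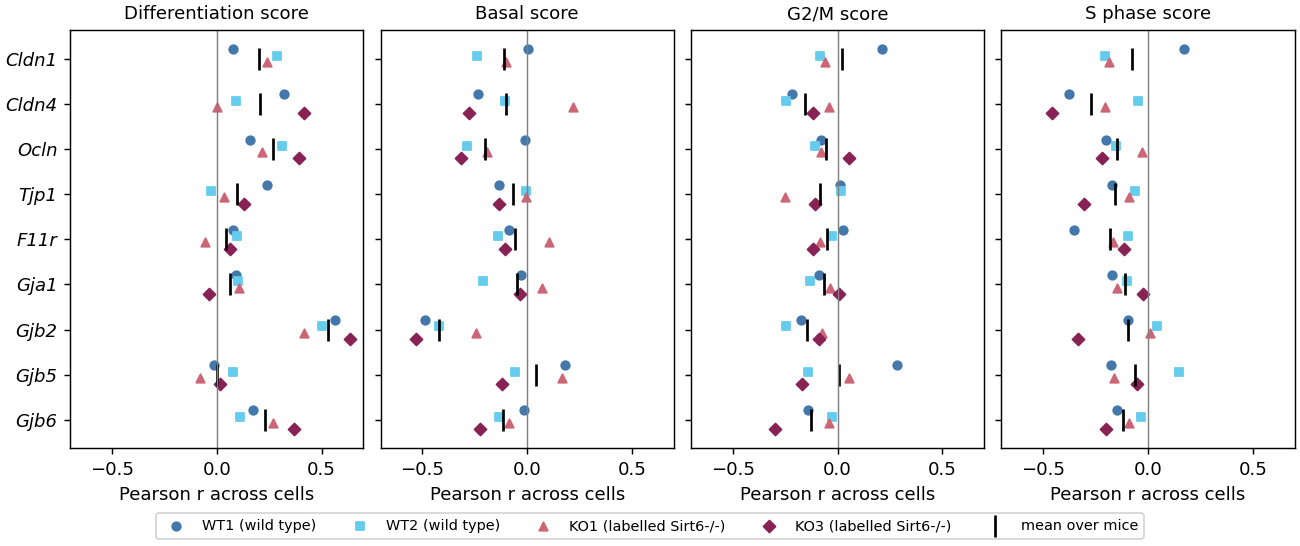
Pearson correlation across cells of each gene with the differentiation, basal, G2/M and S phase scores, 1 symbol per mouse and a bar for the mean over mice; Cldn1 has no value in KO3. Gjb2 stands apart in the differentiation panel (mean 0.529) and the basal panel (mean -0.420), and Cldn4 has the lowest mean with the S phase score (-0.271).

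Gjb2 was less related to the proliferation scores than to the differentiation score. This did not hold for all members. With depth trends removed, the S phase mean was larger in size than the differentiation mean for Cldn4 (-0.271 against 0.208), F11r, Tjp1, Gja1 and Gjb5. With the G2/M score Cldn4 (mean r -0.155), Gjb2 (-0.147) and Gjb6 (-0.126) were below 0 in all 4 mice, as were 10.0% of the background genes. With the S phase score 6 of the 8 were below 0 in all 4 mice, against 10.4% of the background genes: Cldn4 (-0.271), F11r (-0.183), Tjp1 (-0.157), Ocln (-0.150), Gjb6 (-0.117) and Gja1 (-0.111). Most of these S phase values depended on the removal of the depth trends. Without it the means were -0.040 for F11r, -0.025 for Tjp1, -0.028 for Ocln and -0.025 for Gja1, and that of Gjb2 with G2/M was 0.041. The value of Cldn4 with the S phase score stayed at -0.251. By mouse it was -0.377 for WT1 and -0.048 for WT2, and -0.203 for KO1 and -0.457 for KO3, from a gene with a count in 29.9% of cells. No member was above 0 in all 4 mice with either proliferation score, against 10.8% of the background genes for G2/M and 14.7% for S phase.

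Correlations between members were mostly near 0. Among the 8 members with counts in every mouse, 7 of 28 pairs were positive in all 4 mice and none negative, with a median mean r of 0.038. Of pairs of a member with a background gene, 7.81% were positive in all 4. The background genes were found in at least 20% of each mouse's cells. Cldn4, Ocln, Gjb5 and Gjb6 were not, so these shares are not of like pairs. The highest was the neighbouring pair Gjb2 and Gjb6, at 0.150, 0.125, 0.280 and 0.388 (mean 0.236), and of the cells with Gjb6, 17 of 20 in WT1, 3 of 4 in WT2, 10 of 11 in KO1 and 17 of 17 in KO3 had Gjb2. Among all cells of these mice Gjb2 was found in 73.9%, 38.6%, 60.3% and 94.4%. Gjb5 with Gjb2 had a mean of -0.013.

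Gjb2 was set against the adherens junction genes and transcription factors in the same way. Among adherens junction genes its mean r was 0.471 with Nectin4, a cell adhesion receptor, and 0.392 with Jup (plakoglobin). It was lower with Cdh1 (0.189) and Ctnnd1 (0.128), and near 0 with Ctnna1 (0.037), Ctnnb1 (-0.031) and Cdh3 (-0.053). Among the factors it was 0.406 with Grhl1 and 0.326 with Grhl3, grainyhead factors of the barrier programme. With Ovol1 it was 0.223, with Klf4 0.115 and with Klf5 0.020. With Snai2, a repressor of epithelial genes, it was -0.344, -0.212, -0.211 and -0.383 (mean -0.287). Of the background genes 10.9% were positive with Gjb2 in all 4 mice. Grhl3 also went with Cldn4 (mean 0.251) and Ocln (0.239), positive in all 4 mice. The remaining grainyhead factor of the list, Grhl2, did not share this pattern. Its mean r was -0.094 with Gjb2, with signs that differed between mice. With Cldn4 and with Ocln it was -0.168 each, negative in all 4 mice. Grhl3 is itself in the differentiation list, so its values repeat part of that relation. Grhl1 and Grhl3 were picked from the lists after their values were seen.

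In level, none of the 11 adherens junction genes or 11 transcription factors past the filter was called. The groups did not overlap for 4 adherens junction genes, all lower in Sirt6-/- mice, and for 2 transcription factors, both higher; over all genes 18.7% were lower and 17.0% higher without overlap. Cdh1 (E-cadherin) was at 334 CPM for WT1 and 326 for WT2, and 238 for KO1 and 286 for KO3, and Ctnna1 (alpha-catenin) at 360, 403, 325 and 291 (adjusted p = 0.965 for each with edgeR). Jup, at 988, 1196, 908 and 1218 CPM, and Ctnnd1, at 119, 101, 102 and 116, overlapped, as did Cdh3 and Ctnnb1. Of the factors, Klf4 was at 87.5, 87.3, 91.3 and 145 CPM, and Ovol1 at 145, 120, 72.2 and 296. Klf5, Snai2, Grhl2 and Tfap2c overlapped between the groups.

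The genes most alike in pattern differed from member to member, by mean within-mouse correlation over the 4 mice among genes found in at least 20% of cells of each. For Gjb2 they were Lypd3 (0.488), a surface protein of suprabasal cells that is in the differentiation list, Nectin4 (0.471) and Sprr1b (0.461), a cornified envelope precursor. For Gja1 they were Nop58 (0.338), Eef2 (0.306) and Cct4 (0.289), genes of ribosome assembly, translation and protein folding. For F11r they were Hdlbp (0.248), Slc25a25 (0.248) and Xpnpep1 (0.229), and for Tjp1 Dnajb9 (0.256), Paxip1 (0.225) and Tenm4 (0.220). Only the likeness of Gjb2 reached 0.4 among these. In KO3 its correlation with Lypd3 was 0.717, and in WT2 0.348.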

How the data were processed

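The values are expected counts that the authors made and deposited per gene and cell, with STAR and RSEM on mm10 (GRCm38), per the submitters' processing notes; their versions are not stated there. Of non-zero values 21.5% were not whole, but 0.0% for every member. Symbols came from GENCODE M21 (54156 of 54247 IDs matched; the rest held 0.000107% of counts), promoters from RefSeq. No cell was left out, no 2 cells were identical (0 pairs), and no doublet caller was run on these wells sorted as single cells. Counts were summed per mouse, rounded, scaled by TMM, filtered with filterByExpr and tested two-sided with edgeR 4.0.16 in R 4.3.3; DESeq2 1.42.0 and limma 3.58.1 were alternatives. The correlations used list genes found in 10% or more of each mouse's cells, and a background of genes found in 20% or more. The code of both steps was run on simulated data. For the genotype test the simulated spread between mice was far below that of these mice. That run therefore does not show what the test could detect here. Intervals are Clopper-Pearson. Members and lists were chosen with earlier results of these data known. All 9 members are named, with list genes of at least 10 CPM in every mouse (at most 6 per list) and, for members reaching that 20%, the 3 most alike genes; others are marked as picked later, and a few list genes are not reported here. The labels state no strand setting, so overlapping antisense transcripts were not told apart. No table of protein sequences was used here.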

Additional observations from a re-analysis of the deposited data

How the results depend on the processing

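No paired analysis was possible because the genotype groups share the replicate number 1 only. The number of genes past the threshold over all genes was 0 with edgeR, 149 with DESeq2 and 1 with a filter of at least 10 CPM in 2 mice, and 0 to 0 when each mouse was left out in turn; the remaining alternatives (limma-voom, no TMM factors, no filter, thinned cells, main plates, mean log level per cell) also gave 0. No member passed the threshold under any of them. The direction of a log2 difference turned in 6 cases: Cldn4 was -0.49 without KO3 (to 1.77), Ocln 0.03 with the mean log level per cell and 0.25 without WT1 (from -0.69), Tjp1 -0.22 on main plates and -0.19 without WT1 (to 0.50), and Gja1 0.15 without WT2 (from -0.29), where brackets give the other end of the range over mice left out. Values for Cldn1, F11r, Gjb2, Gjb5 and Gjb6 kept their sign throughout, but Gjb2 ranged from 0.02 to 3.06 and Gjb6 from 0.01 to 4.14 when 1 mouse was left out. As a mean over cells of log2(CPM + 1), Cldn1 was -1.08, Cldn4 1.32, Gjb2 2.10 and Gjb6 0.48, and with limma-voom Cldn1 was -7.34 and Gjb6 1.90. Leaving out 1 mouse gave -13.73 to -4.01 for Cldn1, the former with KO3, at 0 counts, as the lone Sirt6-/- mouse. The causes were not tested. Of 36 mean correlations with the scores, 9 moved by more than the spread between mice without removal of depth trends. With rank correlation 3 moved, and 0 with thinned cells or another pseudocount. Leaving out 1 mouse cannot shift a mean by as much as that spread, so this measure could not show dependence on 1 mouse. The mean for Gjb2 with differentiation stayed between 0.484 and 0.574 over the changes of processing. Calling a gene found from 10 counts moved 3 of 36 shares, all of Tjp1 (34.1% in WT2, 30.1% in KO1 and 35.2% in KO3). Precision between genotypes is limited by the 2 mice in each.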
